A study of Rattus norvegicus with 9 samples.

Results

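Alveolar macrophages clear particles and surfactant from the air spaces of the lung, and RNA from such cells of male Wistar rats was sequenced after nitrogen mustard (NM, mechlorethamine hydrochloride), which alkylates and cross-links DNA. The genes described here are those whose RNA was raised 28 d after NM but near the PBS level 1 d after it. The 9 libraries formed 3 groups of 3: NM28d, collected 28 d after an intratracheal dose of 0.125 mg/kg NM, NM1d, collected 1 d after the same dose, and PBS, from rats given phosphate-buffered saline by the same route. All groups shared sex, strain and anaesthesia, and cells were collected by lung massage. The design text speaks of 3 biological replicates per group, numbered 0, 1 and 2. The animals behind each library and the day of the PBS collection are not stated in the labels, so age or time after instillation and NM cannot be told apart in a difference from PBS.

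The members were chosen by their measured values in all 3 groups. The deposited unit was FPKM, fragments scaled to transcript length and library size, and the FPKM of the transcripts of a symbol were added. A member had a mean log2(FPKM + 1) at least 0.8 higher at NM28d than in PBS, a mean within 0.4 of PBS at NM1d, every NM28d library above every NM1d and PBS library, and a mean of at least 3 FPKM at NM28d. Symbols beginning with Slc, Cts, Rab or Il and 8 further named genes were left out. Of 15582 named genes not left out, 375 met the rise, 108 of these also met the day 1 limit, 68 of these had no overlap between libraries, and 56 of these met the level. The members were thus 56 of 16101 named genes. A further 6 named genes met the values but were left out by name, and 9 transcripts without a symbol met them as well.

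As the rule used all 3 comparisons, every difference given below for a member is a description and none is a test. Across 9885 genes tested with limma, 303 genes (3.07%) were called higher (adjusted p under 0.05) at NM28d than in PBS, and 393 (3.98%) were called lower. All 56 members had passed the filter for that test, and 45 were called higher and 0 lower. Against NM1d, 44 members were called higher at NM28d, beside 4.75% of all genes, and at NM1d against PBS 0 of 56 were called, beside 9.86% of all genes. Every NM28d library lay above the other 6 for 5.61% of all genes tested and, by the rule, for all 56 members. These counts over all genes depended on single libraries. Genes called higher at NM28d against PBS numbered 154 without PBS replicate 1, 172 without NM28d replicate 0 and 171 without NM28d replicate 2. Genes called lower numbered 120 without PBS replicate 1, 217 without NM28d replicate 2 and 218 without PBS replicate 0. Against NM1d, the 470 genes called higher at NM28d became 226 without NM28d replicate 0, 267 without NM28d replicate 2, 252 without NM1d replicate 0, 214 without NM1d replicate 1 and 274 without NM1d replicate 2. Of the 303 genes called higher at NM28d, 103 had an NM1d mean within 0.4 of PBS.

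Macrophages that persist after lung injury can take up lipid and become foam cells, which the study's title links to fibrosis after NM. Such cells rely on sterol handling, on defences against oxidants and on lysosomal proteolysis held in check by inhibitors. Alkylated DNA also activates p53, which induces both blockers and regulators of the cell cycle. The members did not fall into 1 pathway: they were sorted by known role, after their values had been seen, into 10 receptors, ligands and second messengers, 9 adhesion and surface genes, 8 metabolic enzymes and carriers, 8 genes of the secretory route, 6 nuclear regulators, 4 mitochondrial genes, 3 protease inhibitors and lysosomal enzymes, 3 cell cycle and ubiquitin genes, 2 genes of the diphthamide pathway and 3 others.

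Members were spread over a wide range of levels. Their median mean level at NM28d was 17.8 FPKM, beside 16.8 FPKM for all genes tested. 6 members exceeded 100 FPKM, 40 lay between 10 and 100 FPKM and 10 lay under 10 FPKM. The difference between NM28d and PBS ran from 0.81 to 2.26 with a median of 0.96 on the log2(FPKM + 1) scale, a scale that understates the ratio of genes with low values. It exceeded 1 for 25 members. At NM1d 37 members lay above PBS and 19 below, with a median difference of 0.09. Within groups the median coefficient of variation of the members' FPKM was 14.9% at NM28d, 26.5% at NM1d and 18.2% in PBS, beside 20.7% at NM28d, 16.01% at NM1d and 17.9% in PBS for all genes tested. The rule barred overlap between the NM28d libraries and the others, which favours genes with close NM28d values, so the lower variation at NM28d was partly set by it. NM28d replicate 1 was the lowest of its group for 28 of 56 members (50%) and for 39.5% of all genes tested.

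**Figure D1:**
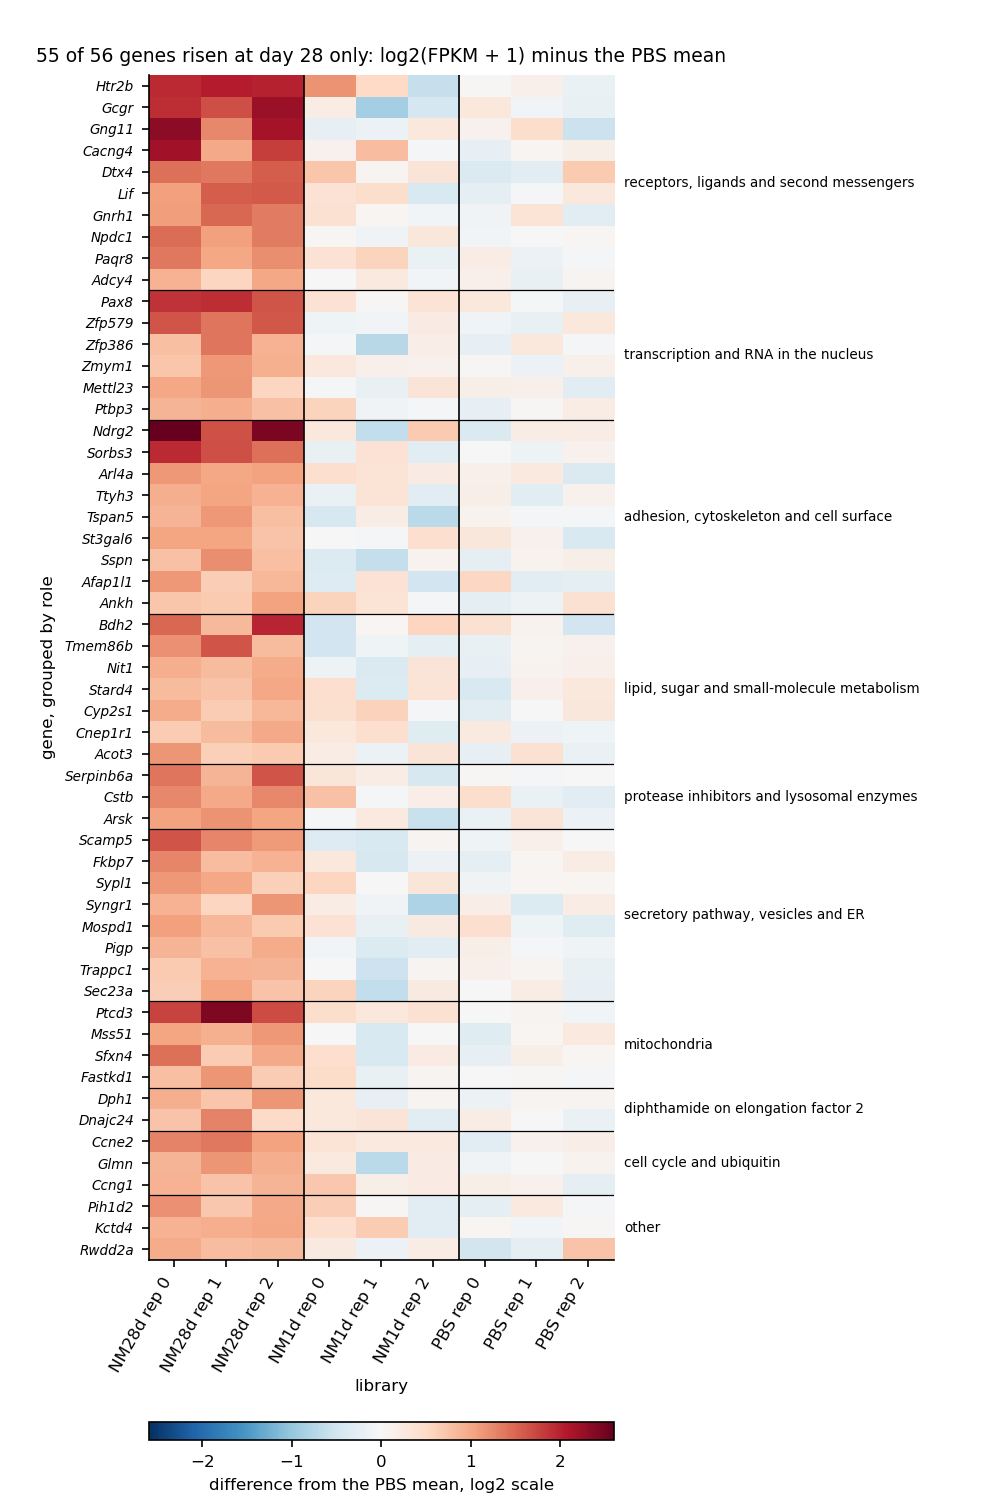
Each tile gives the log2(FPKM + 1) of a member in 1 library minus the mean of the PBS libraries, with members in rows by role and the NM28d, NM1d and PBS libraries in columns. The NM28d columns are red for the 55 members drawn, which the rule required, while the NM1d columns hold both red and blue tiles, and the largest single values are those of Ndrg2, Gng11 and Ptcd3.

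**Figure D2:**
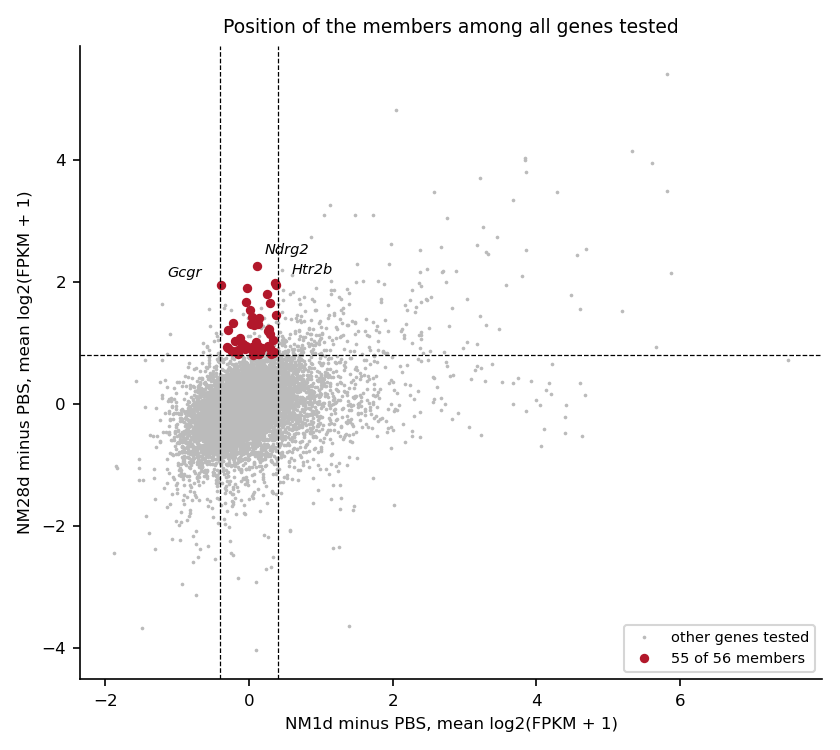
Each point is a gene tested, with the NM1d minus PBS difference of mean log2(FPKM + 1) on the x axis and the NM28d minus PBS difference on the y axis. Dashed lines mark the limits of -0.4, 0.4 and 0.8 that the rule set, and the 55 members drawn fill the band between the vertical lines above the horizontal one, where grey points are genes left out by name, without a symbol, with overlapping libraries or under 3 FPKM.

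RefSeq promoter windows of the build GRCr8, from 250 bases before to 50 bases after each gene's start, were found for 42 of the 56 members. The 4 shown here belong to the member with the highest level, Cstb, to Pigp and Glmn, which with Cstb held the only E-boxes among these 42, and to Ndrg2, the member with the largest difference. Each is printed in the direction of its gene, which lies on the minus strand for Cstb, Pigp and Ndrg2 and on the plus strand for Glmn. Capitals mark the E-box CACGTG, with the adjoining bases of the CLEAR core CACGTGAC, a motif bound by TFEB and TFE3, where those were present, or the TATA box TATAAA read on the other strand.
Cstb: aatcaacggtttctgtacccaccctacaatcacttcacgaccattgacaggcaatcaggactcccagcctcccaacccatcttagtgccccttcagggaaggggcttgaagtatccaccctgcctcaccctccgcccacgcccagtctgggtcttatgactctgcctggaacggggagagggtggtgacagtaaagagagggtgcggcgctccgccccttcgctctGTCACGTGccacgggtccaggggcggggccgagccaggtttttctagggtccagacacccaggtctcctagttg
Pigp: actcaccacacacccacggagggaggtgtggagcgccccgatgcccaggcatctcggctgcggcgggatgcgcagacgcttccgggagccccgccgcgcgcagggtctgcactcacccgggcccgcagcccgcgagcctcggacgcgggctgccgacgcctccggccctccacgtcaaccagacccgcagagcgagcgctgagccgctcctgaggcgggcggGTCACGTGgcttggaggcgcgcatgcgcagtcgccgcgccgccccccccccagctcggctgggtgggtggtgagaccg
Glmn: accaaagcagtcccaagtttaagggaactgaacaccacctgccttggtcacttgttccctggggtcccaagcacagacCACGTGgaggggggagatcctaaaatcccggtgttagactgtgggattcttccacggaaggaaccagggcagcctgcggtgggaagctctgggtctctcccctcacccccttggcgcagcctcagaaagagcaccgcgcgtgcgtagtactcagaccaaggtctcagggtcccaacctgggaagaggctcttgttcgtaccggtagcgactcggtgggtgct
Ndrg2: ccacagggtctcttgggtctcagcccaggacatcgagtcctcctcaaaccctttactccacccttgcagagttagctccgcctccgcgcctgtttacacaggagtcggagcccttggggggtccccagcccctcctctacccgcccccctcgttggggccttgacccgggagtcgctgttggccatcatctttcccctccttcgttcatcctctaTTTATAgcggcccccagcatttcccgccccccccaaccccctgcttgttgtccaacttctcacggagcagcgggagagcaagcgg

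Both strands were searched for each motif, and a match is only a description of the letters. In Cstb the CLEAR core began at position -24 from the start and in Pigp at -28, whereas the E-box of Glmn began at -172 and the TATA box of Ndrg2 at -35. The CLEAR core, which contains the E-box, was present in 2 of 42 member promoters (4.76%), in 4.07% of the promoters of genes tested and in 2.02% of all 27457 promoters. The E-box CACGTG was present in 3 of 42 (7.14%), beside 9.76% of genes tested. The GC box GGGCGG was present in 27 of 42 (64.3%), beside 62.02% of genes tested, the CCAAT box CCAAT in 14 of 42 (33.3%), beside 38.6%, and the ETS motif GGAAGTG in 5 of 42 (11.9%), beside 16.03%. The antioxidant response element TGACNNNGC was present in 7 of 42 (16.7%), among them Cstb, Npdc1 and Arl4a, beside 14.5% of genes tested. The TATA box TATAAA was present in Ndrg2, Sfxn4 and Acot3 (7.14%), beside 7.12%, and the AP-1 motif TGANTCA in Dtx4 and Nit1 (4.76%), beside 5.17%. The sterol response element TCACNCCAC, the CRE TGACGTCA, the NF-kappaB motif GGGANTTTC and the ATF4 forms TGATGNAAT and TGATGCAA were in 0 of the 42 windows, and 1.09%, 3.38%, 1.09%, 0.570% and 0.713% of the promoters of genes tested held them. The median GC content was 59.2% in the members' windows, 60.3% in those of genes tested and 52.3% over all promoters.

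The signalling genes had the highest median difference of the roles, with differences from 0.82 to 1.99 and a median of 1.44. Htr2b, a receptor for serotonin that signals through Gq, had 12.3, 13.3 and 12.8 FPKM in the NM28d libraries, 6.78, 3.96 and 1.299 FPKM in the NM1d libraries and 2.56, 2.799 and 2.08 FPKM in the PBS libraries. The NM28d values lay close together, while the NM1d values spread from below every PBS library to above them. Means were 12.8 ± 0.46 FPKM at NM28d, 4.01 ± 2.74 FPKM at NM1d and 2.48 ± 0.37 FPKM in PBS (SD, n = 3 each), a difference of 1.99 between NM28d and PBS. In the RefSeq gene table Htr2b lies wholly within Psmd1, a proteasome subunit gene on the opposite strand, and the strand of the libraries was not given, so reads of the 2 genes may not have been told apart. Psmd1 itself had 200.05, 111 and 225 FPKM at NM28d, 99.8, 81.0 and 77.3 FPKM at NM1d and 79.5, 97.7 and 133 FPKM in PBS. The part of Psmd1 reads in the Htr2b values was not tested. Of the 9 other serotonin receptor genes listed, 8, among them Htr1b, Htr2a and Htr7, were listed at 0 in all NM28d and PBS libraries. Htr2c, the remaining one, had 1.58, 2.01 and 1.57 FPKM at NM28d, 2.53, 4.11 and 3.96 FPKM at NM1d and 2.05, 2.10 and 2.32 FPKM in PBS and did not pass at NM28d against PBS (adjusted p = 0.629, limma).

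Gcgr, the glucagon receptor, which raises cAMP in liver cells through Gs, had 6.95, 5.77 and 9.03 FPKM at NM28d, 1.396, 0.146 and 0.542 FPKM at NM1d and 1.54, 1.01 and 0.8405 FPKM in PBS. Its lowest NM28d library was 3.74 times its highest other library, the widest gap of any member. The gene was summed over 3 transcripts, and in PBS and NM28d the libraries differed in which of them carried the signal. A transcript recorded as non-coding had 5.04, 5.77 and 3.24 FPKM at NM28d and 0.294, 0 and 0.840 FPKM in PBS. The main coding transcript had 1.84, 0.000241 and 5.74 FPKM at NM28d and 1.19, 0.943 and 0.000228 FPKM in PBS. The rise of the sum was therefore present in all 3 NM28d libraries, but that of the coding transcript was not. Gng11, a gamma subunit of heterotrimeric G proteins, had 20.5, 9.22 and 18.4 FPKM at NM28d, 2.73, 2.87 and 4.24 FPKM at NM1d and 3.62, 4.92 and 1.92 FPKM in PBS. NM28d replicate 1 stood below its group but above the other 6 libraries. Gng11 is abundant in platelets. The platelet marker Pf4 had 120, 52.0 and 78.6 FPKM at NM28d, 14.0, 34.0 and 37.0 FPKM at NM1d and 73.6, 29.3 and 9.55 FPKM in PBS. Gp1ba averaged 1.82 FPKM at NM28d, 2.15 FPKM at NM1d and 3.01 FPKM in PBS, and Ppbp was at 0 in all NM28d and NM1d libraries. The 6 erythroid and platelet markers in the file summed to 440 to 572 FPKM at NM28d, 355 to 634 FPKM at NM1d and 449 to 1764 FPKM in PBS. Most of that sum came from the haemoglobin genes Hba-a1 and Hbb, with means of 287 and 152 FPKM at NM28d and 721 and 318 FPKM in PBS, so it says little about platelets. The part of platelets in the Gng11 values was not tested. Adcy4, an adenylyl cyclase that makes cAMP and responds to G protein subunits, sat just inside the limit of the rule with a difference of 0.82. It had 34.9, 27.3 and 37.8 FPKM at NM28d, 18.5, 22.1 and 17.5 FPKM at NM1d and 20.05, 15.9 and 19.3 FPKM in PBS.

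Partners of these signalling genes mostly did not pass the test. Of 14 further adenylyl cyclase and G protein genes tested, Gnb4, a beta subunit, was called higher at NM28d than in PBS and Gnb2, another beta subunit, was called lower, both named after their values were seen. Gnb4 averaged 8.75 ± 0.18 FPKM at NM28d and 3.24 ± 1.19 FPKM in PBS (SD, n = 3 each), with a fitted log2 fold change of 1.24 ± 0.24 (SE) and an adjusted p of 0.00967 in limma. Gnb2 averaged 386 ± 72 FPKM at NM28d and 683 ± 64 FPKM in PBS (SD, n = 3 each), a log2 fold change of -0.84 ± 0.18 (SE) with adjusted p = 0.0154 in limma, and its adjusted p was 0.0517 without NM28d replicate 2 and 0.0851 without PBS replicate 1. The remaining 12 passed in neither direction, against 3.07% of all genes called higher and 3.98% called lower. At NM1d Gnb4 averaged 6.36 FPKM and Gnb2 412 FPKM, and both were called there in the same direction against PBS, Gnb4 by 0.83 (adjusted p = 0.0472, limma) and Gnb2 by -0.73 (adjusted p = 0.0245, limma). The NM1d call for Gnb4 was lost in 8 of 9 fits that left out 1 library, all but that without NM28d replicate 1 (adjusted p up to 0.193). That for Gnb2 was lost without NM1d replicate 0, NM1d replicate 1, PBS replicate 0 or PBS replicate 1 (adjusted p up to 0.130). The adenylyl cyclase genes Adcy5 and Adcy6 were high at NM1d and under 1 FPKM in every NM28d and PBS library. They passed the filter on low values only through the NM1d libraries, so their NM1d difference is described and no p is given. Adcy5 averaged 0.570 FPKM at NM28d, 8.01 FPKM at NM1d and 0.502 FPKM in PBS, and Adcy6 averaged 0.416 FPKM at NM28d, 3.66 FPKM at NM1d and 0.489 FPKM in PBS.

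Lif, leukaemia inhibitory factor, is a cytokine of the IL-6 family that acts through Lifr and Il6st and on to Stat3. It had 11.04, 16.1 and 16.2 FPKM at NM28d, 6.405, 6.804 and 3.35 FPKM at NM1d and 3.84, 4.55 and 5.94 FPKM in PBS, so the NM28d libraries lay above all others while the NM1d and PBS libraries overlapped. The lowest NM28d library was 1.62 times the highest of the other 6. Of 5 other genes of this route that were tested, Socs3, a feedback inhibitor of Stat3 signalling, was called higher at NM28d than in PBS. Socs3 had 42.8, 16.5 and 41.8 FPKM at NM28d and 8.97, 9.49 and 11.8 FPKM in PBS, a log2 fold change of 1.54 ± 0.35 (SE) with adjusted p = 0.0234 in limma, and it was also called higher at NM1d, by 2.20 (adjusted p = 0.00283, limma). The NM28d call for Socs3 was lost without NM28d replicate 0 (adjusted p = 0.0788), NM28d replicate 2 (adjusted p = 0.0859), PBS replicate 0 (adjusted p = 0.0661) or PBS replicate 1 (adjusted p = 0.0823), and with no filter (adjusted p = 0.0667). Stat3 averaged 46.0 FPKM at NM28d, 47.3 FPKM at NM1d and 37.1 FPKM in PBS and did not pass the test (adjusted p = 0.249 at NM28d against PBS, limma). Lifr was listed at 0 in all NM28d libraries, and Il6st averaged 13.2 FPKM at NM28d, 17.9 FPKM at NM1d and 18.5 FPKM in PBS.

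Dtx4, a Deltex ubiquitin ligase linked to Notch signalling, had 14.3, 13.7 and 15.8 FPKM at NM28d, 8.34, 4.96 and 6.18 FPKM at NM1d and 3.38, 3.61 and 8.06 FPKM in PBS. PBS replicate 2 stood well above the other PBS libraries. Of 8 other Notch pathway genes tested, 0 passed at NM28d against PBS. Cacng4, known in neurons as an accessory subunit of AMPA receptors, had 9.7004, 3.71 and 7.21 FPKM at NM28d, 1.55, 3.14 and 1.31 FPKM at NM1d and 1.05, 1.45 and 1.63 FPKM in PBS. Its lowest NM28d value, in replicate 1, was only 1.18 times the highest NM1d value. Gnrh1, which encodes the precursor of gonadotropin-releasing hormone, had 29.001, 38.7 and 35.3 FPKM at NM28d, 17.7, 13.8 and 12.5 FPKM at NM1d and 12.4, 17.1 and 10.8 FPKM in PBS. Npdc1, a membrane protein first described in neural cells, differed by 1.29, with 31.6, 24.2 and 29.7 FPKM at NM28d, 11.2, 10.2 and 13.6 FPKM at NM1d and 10.5, 11.04 and 11.5 FPKM in PBS. Paqr8, a membrane receptor for progesterone, was among the members with the lowest levels, with 4.97, 3.64 and 4.35 FPKM at NM28d, 2.003, 2.45 and 1.06 FPKM at NM1d and 1.64, 1.07 and 1.25 FPKM in PBS. Gcgr, Cacng4, Gnrh1, Htr2b and Paqr8 are genes known chiefly from tissues other than macrophages.

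**Figure D3:**
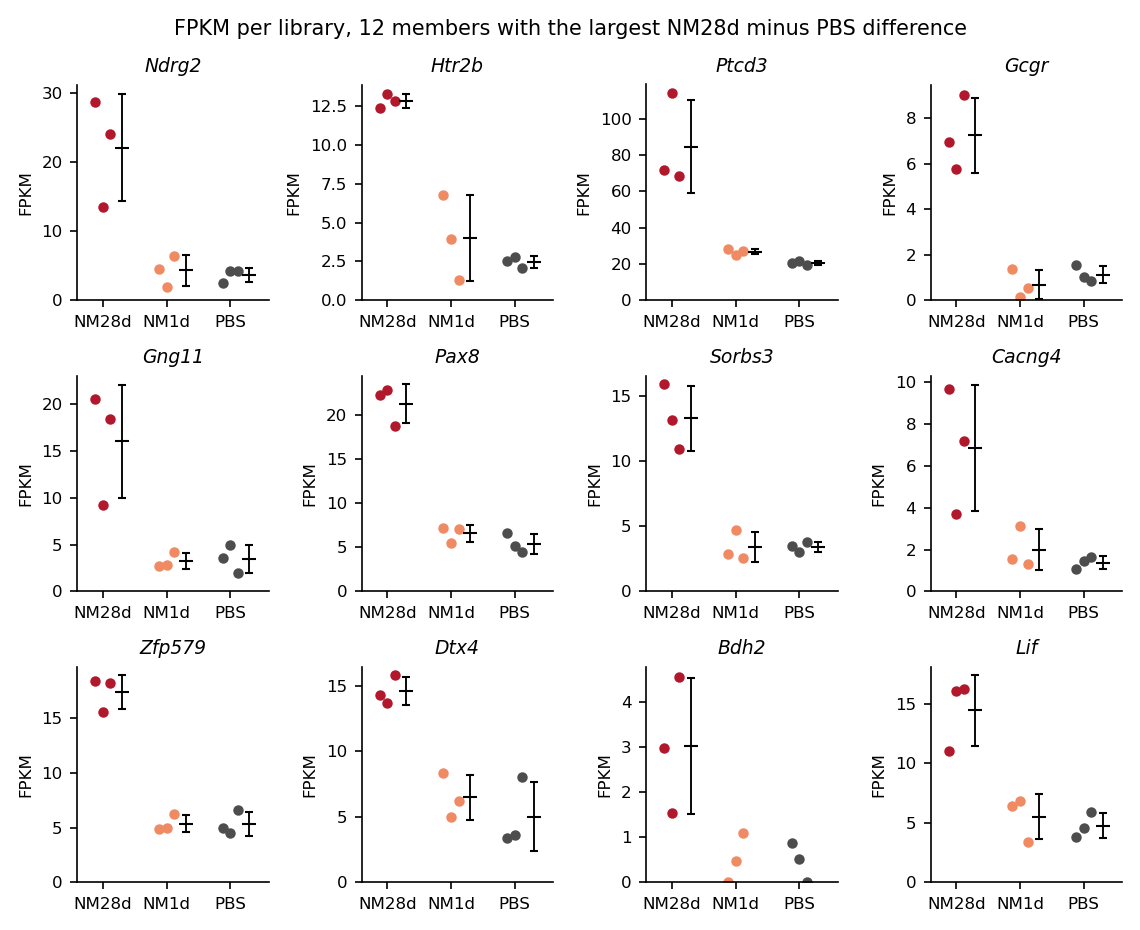
Each panel plots the FPKM of 1 of the 12 members with the largest difference, with a point for each library and a dash and bar for the mean and SD of the 3 libraries, and with no mean or bar where a library is at 0. In each panel the NM28d points lie above all NM1d and PBS points, which the rule required, and the NM28d points of Htr2b and Zfp579 lie close together while those of Ndrg2, Gng11 and Cacng4 spread widely.

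Among the nuclear regulators Pax8, a paired box transcription factor of thyroid and kidney, differed most. It had 22.3, 22.9 and 18.8 FPKM at NM28d, 7.17, 5.47 and 7.12 FPKM at NM1d and 6.61, 5.11 and 4.46 FPKM in PBS. The lowest NM28d library was 2.62 times the highest other one, the second widest gap of all members. The zinc finger gene Zfp579 had 18.4, 15.6 and 18.2 FPKM at NM28d, 4.84, 4.98 and 6.25 FPKM at NM1d and 4.94, 4.51 and 6.58 FPKM in PBS, and its NM1d range lay within its PBS range. Zfp386, another zinc finger gene, stood at a higher level, with 177, 267 and 192 FPKM at NM28d, 98.5, 61.6 and 115 FPKM at NM1d and 86.96, 123 and 97.9 FPKM in PBS. NM28d replicate 1 was here the highest of its group. Zmym1, a zinc finger protein of the MYM type, differed by 0.92, with 19.7, 26.4 and 22.7 FPKM at NM28d, 14.3, 12.8 and 12.5 FPKM at NM1d and 11.7, 10.3 and 12.8 FPKM in PBS. Mettl23, a histone arginine methyltransferase, differed by 0.90, and Ptbp3, a splicing regulator that binds polypyrimidine tracts, by 0.86. Zinc finger genes form large families of similar sequence, and reads shared between them may not have been separated.

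Ndrg2, of the N-myc downstream regulated gene family, had the largest difference of all members. It had 28.6, 13.5 and 24.1 FPKM at NM28d, 4.61, 1.95 and 6.41 FPKM at NM1d and 2.54, 4.28 and 4.24 FPKM in PBS. The means were 22.1 ± 7.8 FPKM at NM28d, 4.33 ± 2.24 FPKM at NM1d and 3.69 ± 0.99 FPKM in PBS (SD, n = 3 each), a ratio of 5.99 between NM28d and PBS. The sum came from 4 transcripts, and the libraries differed in which of these carried it. A transcript with 16.1 FPKM in NM28d replicate 0 and 13.5 FPKM in NM28d replicate 2 had 0.0127 FPKM in NM28d replicate 1 and at most 0.0127 FPKM in any NM1d or PBS library. A second had 7.06 and 10.5 FPKM in NM28d replicates 0 and 2 and 0 FPKM in NM28d replicate 1 and in PBS. NM28d replicate 1 instead had 13.5 FPKM on the transcript that also carried the PBS signal, with 2.53, 4.27 and 4.23 FPKM there. The rise of the sum was therefore present in all 3 NM28d libraries, but the transcript behind it was not the same. Of its relatives, Ndrg1 averaged 113 FPKM at NM28d, 83.9 FPKM at NM1d and 105 FPKM in PBS, Ndrg3 averaged 14.3 FPKM at NM28d, 14.0 FPKM at NM1d and 18.4 FPKM in PBS, and neither passed the test against PBS.

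The other adhesion and surface genes differed by 0.82 to 1.68. Sorbs3, the adaptor vinexin that binds vinculin at cell adhesions, had 15.9, 13.1 and 10.9 FPKM at NM28d, 2.89, 4.73 and 2.59 FPKM at NM1d and 3.46, 3.04 and 3.79 FPKM in PBS. Sspn, sarcospan of the dystrophin and dystroglycan complex, had 11.99, 16.5 and 12.02 FPKM at NM28d, 4.98, 3.96 and 7.15 FPKM at NM1d and 5.38, 7.14 and 7.501 FPKM in PBS. Of 5 further genes of the dystroglycan complex and the vinexin family tested, 0 passed at NM28d against PBS. Both Sorbs3 and Sspn are known from muscle, and the summed fibroblast and smooth muscle markers lay at 18.6 to 24.5 FPKM at NM28d, 10.6 to 16.1 FPKM at NM1d and 13.1 to 19.5 FPKM in PBS. Of the 9 such markers in the file Tagln made up most of that sum, with means of 19.1 FPKM at NM28d, 12.2 FPKM at NM1d and 14.6 FPKM in PBS, and Lum and Pdgfra were at 0 in all libraries. Col1a1 averaged 0 FPKM at NM28d, 0.0128 FPKM at NM1d and 0.0203 FPKM in PBS. The smooth muscle marker Myh11 had 1.32, 1.72 and 1.35 FPKM at NM28d, 0.470, 0.729 and 0.605 FPKM at NM1d and 0.850, 0.815 and 1.18 FPKM in PBS, so each NM28d library lay above the other 6. The part of such cells in the Sorbs3 and Sspn values was not tested.

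Tspan5, a tetraspanin that carries the protease Adam10 to the surface, had 10.9, 13.1 and 10.1 FPKM at NM28d, 3.81, 6.39 and 2.996 FPKM at NM1d and 5.9005, 5.31 and 5.19 FPKM in PBS. Adam10 and the related tetraspanin Tspan14 were tested and did not pass at NM28d against PBS. The small GTPase Arl4a had 14.9, 13.7 and 13.9 FPKM at NM28d, 8.78, 8.34 and 7.43 FPKM at NM1d and 6.93, 7.64 and 4.61 FPKM in PBS. Ttyh3, a membrane protein of the tweety family, differed by 0.96, and St3gal6, which adds sialic acid to surface sugars, by 0.93. Afap1l1, which binds actin filaments, differed by 0.88. Ankh, a membrane protein needed for pyrophosphate outside cells, had 8.84, 8.46 and 11.3 FPKM at NM28d, 7.904, 6.64 and 4.796 FPKM at NM1d and 3.99, 4.396 and 6.75 FPKM in PBS, so that its lowest NM28d library was only 1.07 times the highest NM1d library.

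Oxidants activate NRF2, a transcription factor that raises enzymes of glutathione and NADPH supply. Of 29 genes of the NRF2 and glutathione list that were not members, 7 were called higher at NM28d than in PBS and 0 lower. The median log2 fold change over PBS of the 29 was 0.19 at NM28d and 0.18 at NM1d. The 7 were Gclc, Gstp1, Nfe2l2, Txnrd1, Srxn1, Pgd and Gsta1. Of these Gclc was among the symbols that the rule left out by name. Gclc, which makes the first intermediate of glutathione, had 14.2, 21.0 and 17.7 FPKM at NM28d, 14.4, 13.4 and 12.4 FPKM at NM1d and 9.33, 8.41 and 7.34 FPKM in PBS. Its log2 fold change was 0.98 ± 0.19 (SE, adjusted p = 0.00993, limma). Gstp1, a glutathione transferase, had 61.3, 65.9 and 79.6 FPKM at NM28d and 13.2, 37.3 and 23.8 FPKM in PBS, a log2 fold change of 1.55 ± 0.31 (SE) with adjusted p = 0.0118 in limma. Pgd, which makes NADPH, had 179, 121 and 192 FPKM at NM28d, 126, 122 and 123 FPKM at NM1d and 87.8, 104 and 75.4 FPKM in PBS. Its log2 fold change was 0.86 ± 0.19 (SE, adjusted p = 0.0188, limma). The call for Pgd was lost without NM28d replicate 0 (adjusted p = 0.0703), NM28d replicate 2 (adjusted p = 0.0777) or PBS replicate 2 (adjusted p = 0.0506) and when limma was run on the NM28d and PBS libraries alone (adjusted p = 0.0536). Nfe2l2 encodes NRF2 itself. The count of 7 fell to 2 without NM28d replicate 2 and to 3 without NM28d replicate 0, PBS replicate 1 or PBS replicate 2, and it was 4 with no filter or with the NM28d and PBS libraries alone. At NM1d 4 of the 29 were called higher than in PBS and 0 lower, Gpx2, Slc7a11, Nfe2l2 and Gsta1. That count was 2 without NM1d replicate 0 or NM1d replicate 1, 8 without NM28d replicate 1, 2 with a filter of 5 FPKM and 7 with the NM1d and PBS libraries alone.

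Stard4, which carries cholesterol through the cytosol, was the member from the sterol list. It had 20.7, 19.5 and 23.6 FPKM at NM28d, 15.7, 8.61 and 14.6 FPKM at NM1d and 8.23, 12.4 and 13.8 FPKM in PBS, and the lowest NM28d library lay 1.24 times above the highest NM1d library. Of 23 other sterol genes tested, 7 were called higher at NM28d than in PBS and 0 lower, with a median log2 fold change of 0.59. The 7 were Hmgcs1, Insig1, Idi1, Fdps, Fdft1, Cyp51 and Msmo1, enzymes of cholesterol synthesis except for Insig1, which holds the sterol sensor in the ER. Of these Insig1, Fdps and Fdft1 were among the symbols that the rule left out by name. Hmgcs1 had 28.4, 28.1 and 41.6 FPKM at NM28d, 20.7, 17.9 and 20.7 FPKM at NM1d and 11.1, 12.6 and 11.4 FPKM in PBS. Its log2 fold change was 1.38 ± 0.18 (SE, adjusted p = 0.00118, limma), and it was called higher at NM1d as well, by 0.71 (adjusted p = 0.0320, limma). The NM1d call for Hmgcs1 was lost with any 1 of the 6 NM1d and PBS libraries left out (adjusted p between 0.0660 and 0.138). Insig1 had 49.8, 53.3 and 50.2 FPKM at NM28d, 38.7, 29.6 and 34.9 FPKM at NM1d and 24.0, 26.5 and 24.8 FPKM in PBS, a log2 fold change of 1.00 ± 0.15 between NM28d and PBS (SE, adjusted p = 0.00270, limma). The count of 7 was 4 without NM28d replicate 0, NM28d replicate 2 or PBS replicate 1. At NM1d 2 of the 23 were called higher than in PBS, Hmgcs1 and Idi1, and Scap was called lower. Without NM1d replicate 0 all 3 of these calls were lost, and Scap also did not pass without NM1d replicate 2 or PBS replicate 1. The other START-domain genes Stard3, Stard5 and Stard6 did not pass at NM28d against PBS. Stard6 had 10.4, 11.6 and 8.43 FPKM at NM28d, 8.36, 4.66 and 5.47 FPKM at NM1d and 5.91, 6.64 and 6.87 FPKM in PBS (adjusted p = 0.149, limma), and each NM28d library lay above the other 6.

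**Figure D4:**
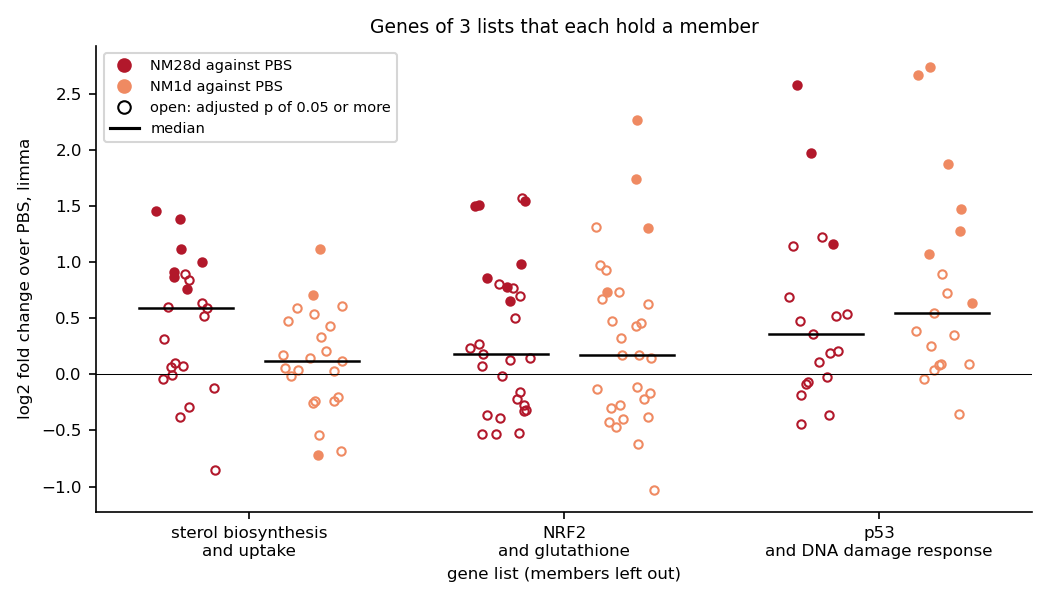
Each point is the log2 fold change over PBS, from limma, of a gene in 1 of 3 lists that hold a member, with the members left out, at NM28d and at NM1d. Filled points had an adjusted p under 0.05 and the lines are medians. For sterol genes the NM28d median of 0.59 lies above the NM1d median of 0.12. For NRF2 and glutathione genes the medians are 0.19 at NM28d and 0.18 at NM1d. For p53 genes the NM28d median of 0.36 lies below the NM1d median of 0.55. The NM28d and NM1d values share the PBS libraries.

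Other metabolic members acted on lipids and small molecules. Nit1, an amidase that clears deaminated glutathione, had 103, 93.5 and 104 FPKM at NM28d, 47.8, 40.4 and 67.04 FPKM at NM1d and 45.2, 55.98 and 57.7 FPKM in PBS, summed over 4 transcripts. A Nit1 transcript with 61.7 and 62.4 FPKM in NM28d replicates 0 and 2 had 13.9 FPKM in NM28d replicate 1. It had 22.3, 28.6 and 23.5 FPKM in PBS. Another had 38.3, 75.6 and 15.3 FPKM at NM28d and 11.4, 17.4 and 29.5 FPKM in PBS. The rise of the sum was present in all 3 NM28d libraries, but no transcript rose in all of them. By the RefSeq annotation 21.4% of the length of Nit1 overlaps Pfdn2, which averaged 94.96 FPKM at NM28d, 119 FPKM at NM1d and 139 FPKM in PBS. Tmem86b, which cleaves lysoplasmalogen lipids, had 29.9, 41.4 and 22.97 FPKM at NM28d, 8.65, 11.5 and 10.4 FPKM at NM1d and 10.8, 13.4 and 13.7 FPKM in PBS. Bdh2, a cytosolic dehydrogenase, had 2.98, 1.54 and 4.56 FPKM at NM28d, 0, 0.473 and 1.09 FPKM at NM1d and 0.8701, 0.517 and 0 FPKM in PBS. It was the only member listed at 0 in any library, and its NM28d mean of 3.03 FPKM was the nearest to the limit of the rule. Cyp2s1, a cytochrome P450, had 12.002, 9.53 and 11.2 FPKM at NM28d, 7.91, 9.14 and 5.47 FPKM at NM1d and 4.47, 5.57 and 7.21 FPKM in PBS. Its NM28d replicate 1 lay only just above NM1d replicate 1. Cnep1r1, which directs a phosphatase onto lipins, had 9.78, 11.1 and 12.6 FPKM at NM28d, 7.26, 8.24 and 4.47 FPKM at NM1d and 7.14, 5.12 and 5.32 FPKM in PBS, and 0 of 4 genes tested for lipins and that phosphatase passed at NM28d against PBS. Acot3, which in mice is a thioesterase of acyl-CoA in peroxisomes, had 13.6, 9.02 and 9.59 FPKM at NM28d, 6.47, 4.89 and 7.33 FPKM at NM1d and 4.66, 7.62 and 4.803 FPKM in PBS, and 0 of 6 other acyl-CoA thioesterase genes tested passed. The Acot genes are near copies of each other, so its reads may be shared.

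Cstb, cystatin B, an inhibitor of cysteine cathepsins in the cytosol and nucleus, was the most abundant member. It had 929.5, 776 and 925 FPKM at NM28d, 662, 379 and 439 FPKM at NM1d and 541, 349.5 and 317 FPKM in PBS. Means were 877 ± 88 FPKM at NM28d, 493 ± 149 FPKM at NM1d and 402 ± 121 FPKM in PBS (SD, n = 3 each), and NM1d replicate 0 lay nearest to the NM28d range, which began 1.17 times above it. Among 3 other cystatins tested, Cst7 was called higher at NM28d than in PBS, with 18.8, 7.83 and 9.26 FPKM at NM28d, 52.9, 62.2 and 55.8 FPKM at NM1d and 3.41, 3.499 and 5.95 FPKM in PBS (log2 fold change of 1.23 ± 0.29 SE, adjusted p = 0.0244, limma). Its NM28d level was lower than its NM1d level (adjusted p = 0.000652, limma). Cstb was higher at NM28d than at NM1d in every library, which the rule required of members. The call for Cst7 at NM28d was lost without NM28d replicate 0 (adjusted p = 0.0605), PBS replicate 0 (adjusted p = 0.0774) or PBS replicate 1 (adjusted p = 0.102), with no filter (adjusted p = 0.0641) and with the NM28d and PBS libraries alone (adjusted p = 0.0704). Cst3, the secreted cystatin C, averaged 549 FPKM at NM28d, 1423 FPKM at NM1d and 476 FPKM in PBS and was not called at NM28d against PBS (adjusted p = 0.708, limma).

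Serpinb6a, a serine protease inhibitor of the cytosol, had 30.2, 20.9 and 36.01 FPKM at NM28d, 13.7, 12.6 and 7.84 FPKM at NM1d and 11.1, 10.5 and 10.9 FPKM in PBS. The PBS libraries were tight and the NM28d libraries were not. Serpinb6a belongs to a family of near copies, and reads may be shared. Arsk, a lysosomal sulfatase, had 4.68, 5.24 and 4.64 FPKM at NM28d, 1.67, 2.305 and 0.852 FPKM at NM1d and 1.46, 2.47 and 1.47 FPKM in PBS.

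Members of the secretory route ranged from GPI anchor synthesis to vesicle coats, tethers and membrane proteins. Pigp is a subunit of the enzyme that starts the making of GPI anchors. It had 143, 132 and 152 FPKM at NM28d, 73.9, 60.6 and 64.4 FPKM at NM1d and 86.5, 74.5 and 72.4 FPKM in PBS, and its NM28d range began 1.53 times above the highest other library, PBS replicate 0. Of 4 other genes for subunits of that enzyme that were tested, Pigh was called higher at NM28d than in PBS, and Piga, Pigc and Pigq were not. Pigh had 142, 228 and 137 FPKM at NM28d, 52.9, 41.5 and 75.2 FPKM at NM1d and 80.9, 77.1 and 68.4 FPKM in PBS. Its log2 fold change was 1.12 ± 0.24 (SE, adjusted p = 0.0154, limma), with an adjusted p of 0.0550 without PBS replicate 1. Pigh met the rest of the rule for members but lay at -0.45 at NM1d against PBS, just outside the limit of -0.4.

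Trappc1, a core subunit of the TRAPP tether of vesicles, had 90.02, 105 and 103 FPKM at NM28d, 56.5, 37.9 and 58.3 FPKM at NM1d and 60.9, 58.7 and 48.4 FPKM in PBS. Of 13 other TRAPP genes tested 0 passed at NM28d against PBS, and their median log2 fold change was -0.04. In the RefSeq gene table Trappc1 lies wholly within Cntrob, which averaged 2.71 FPKM at NM28d, 3.59 FPKM at NM1d and 3.11 FPKM in PBS. Sec23a, a coat subunit of the vesicles that leave the ER, was the member nearest to the limit of 0.8. It had 6.05, 8.26 and 6.62 FPKM at NM28d, 5.79, 1.92 and 4.31 FPKM at NM1d and 3.57, 4.22 and 2.91 FPKM in PBS, and the NM28d range began close above NM1d replicate 0. Of 10 other COPII genes tested 0 passed at NM28d against PBS. Sec23b, its close relative, averaged 21.3 FPKM at NM28d, 23.8 FPKM at NM1d and 15.3 FPKM in PBS and did not pass at NM28d against PBS (adjusted p = 0.107, limma).

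Scamp5, Sypl1 and Syngr1 encode membrane proteins of secretory and synaptic-type vesicles. Scamp5 had 9.09, 6.77 and 5.91 FPKM at NM28d, 1.57, 1.45 and 2.395 FPKM at NM1d and 1.98, 2.52 and 2.202 FPKM in PBS. Its gap of 2.34 was the widest of the secretory members. Sypl1 had 49.04, 44.9 and 33.9 FPKM at NM28d, 32.7, 21.9 and 27.3 FPKM at NM1d and 20.4, 22.7 and 22.6 FPKM in PBS, with a gap of 1.04. Syngr1 had 17.3, 13.4 and 20.7 FPKM at NM28d, 10.2, 8.15 and 4.62 FPKM at NM1d and 10.1, 6.62 and 10.2 FPKM in PBS. Of 4 relatives tested 0 passed at NM28d against PBS. Fkbp7, a prolyl isomerase that helps proteins fold in the ER, differed by 0.99, and Mospd1, a protein with an MSP domain, by 0.87.

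Ptcd3, a protein of the small subunit of the mitochondrial ribosome, had the third largest difference of all members. It had 71.5, 114 and 68.4 FPKM at NM28d, 28.2, 25.1 and 27.1 FPKM at NM1d and 20.7, 21.4 and 19.3 FPKM in PBS. The means were 84.6 ± 25.5 FPKM at NM28d, 26.8 ± 1.6 FPKM at NM1d and 20.5 ± 1.1 FPKM in PBS (SD, n = 3 each). NM28d replicate 1 was far above its group, every NM1d library was also above every PBS library, and the NM1d difference of 0.37 was near the limit of 0.4. Fastkd1, which acts on mitochondrial RNA, had 44.1, 57.1 and 40.4 FPKM at NM28d, 35.9, 21.99 and 26.7 FPKM at NM1d and 25.7, 25.8 and 24.5 FPKM in PBS. Of 6 related genes tested 0 passed at NM28d against PBS, with a median log2 fold change of 0.21. Sfxn4, a sideroflexin needed for the assembly of complex I, had 43.2, 24.7 and 31.3 FPKM at NM28d, 21.3, 11.5 and 18.04 FPKM at NM1d and 13.2, 17.3 and 15.9 FPKM in PBS, and 0 of 4 other sideroflexins passed. Mss51, whose yeast counterpart controls translation in mitochondria, had 49.3, 45.8 and 52.9 FPKM at NM28d, 23.99, 17.8 and 23.7 FPKM at NM1d and 18.8, 24.7 and 28.5 FPKM in PBS.

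A pair of members belongs to the same small pathway, which builds diphthamide, the modified histidine of elongation factor 2 that diphtheria toxin targets. Dph1, of the first step, had 29.98, 25.6 and 34.7 FPKM at NM28d, 18.4, 12.9 and 15.98 FPKM at NM1d and 13.6, 15.99 and 15.9 FPKM in PBS. Dnajc24, the J-domain protein of the same step, had 10.1, 15.2 and 8.36 FPKM at NM28d, 6.99, 7.34 and 4.38 FPKM at NM1d and 6.55, 5.597 and 4.88 FPKM in PBS. NM28d replicate 1 was the lowest of its group for Dph1 and the highest for Dnajc24. The other genes of the pathway tested, Dph2, Dph3, Dph5, Dph6 and the target Eef2, passed in neither direction. Dph2 averaged 5.78 ± 1.21 FPKM at NM28d, 6.39 ± 1.33 FPKM at NM1d and 6.91 ± 1.45 FPKM in PBS (SD, n = 3 each). Eef2 averaged 554 ± 189 FPKM at NM28d, 511.2 ± 70.3 FPKM at NM1d and 703 ± 95 FPKM in PBS (SD, n = 3 each).

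Ccng1, cyclin G1, a textbook target of p53, had 160.4, 143 and 159 FPKM at NM28d, 139, 94.1 and 99.3 FPKM at NM1d and 94.7, 92.1 and 70.8 FPKM in PBS. It had the smallest gap of all members, 1.03, since NM1d replicate 0 reached almost to the NM28d range. Of 19 other p53 and DNA damage genes tested, 3 were called higher at NM28d than in PBS and 0 lower, with a median log2 fold change of 0.36 at NM28d and of 0.55 at NM1d. Cdkn1a, p21, which blocks cyclin-dependent kinases, had 61.7, 78.9 and 58.1 FPKM at NM28d, 104, 61.3 and 53.9 FPKM at NM1d and 13.4, 11.2 and 6.98 FPKM in PBS. Its log2 fold change was 2.57 ± 0.27 at NM28d (SE, adjusted p = 0.000397, limma) and 2.67 at NM1d (adjusted p = 9.12e-05, limma). Mdm2, the ubiquitin ligase that limits p53, had 51.7, 54.5 and 50.8 FPKM at NM28d, 46.9, 29.5 and 34.0 FPKM at NM1d and 25.8, 23.5 and 19.8 FPKM in PBS, a log2 fold change of 1.16 ± 0.19 at NM28d (SE, adjusted p = 0.00337, limma). Pmaip1 was the other p53 gene called at NM28d. The count of 3 was 2 without PBS replicate 0 or PBS replicate 1, with no filter and with the NM28d and PBS libraries alone. At NM1d Ccng1 differed from PBS by 0.35, inside the limit of the rule. Of the same 19 genes, 7 were called higher at NM1d than in PBS and 0 lower: Cdkn1a, Mdm2 and Pmaip1, which were called at NM28d too, and Fas, Gadd45b, Phlda3 and Plk2. That count was 2 without NM1d replicate 0 or PBS replicate 1, 3 without NM1d replicate 1, PBS replicate 0 or PBS replicate 2, 4 without NM1d replicate 2 or with no filter, and 3 with quantile normalisation. The NM1d call for Mdm2 (adjusted p = 0.0495, limma) was lost in 7 of 9 fits that left out 1 library (adjusted p up to 0.225) and that for Pmaip1 (adjusted p = 0.0291, limma) in 5 of 9 (adjusted p up to 0.120).

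Ccne2, cyclin E2, which activates Cdk2 at the start of DNA replication, had 18.8, 19.97 and 15.7 FPKM at NM28d, 9.26, 8.61 and 8.61 FPKM at NM1d and 5.63, 7.75 and 8.08 FPKM in PBS. Ccne1 averaged 2.24 ± 1.28 FPKM at NM28d, 6.02 ± 1.38 FPKM at NM1d and 3.496 ± 0.199 FPKM in PBS (SD, n = 3 each). It was not called against PBS (adjusted p = 0.275 at NM28d and 0.192 at NM1d, limma). At NM28d against NM1d Ccne1 was called lower, with a log2 fold change of -1.16 (adjusted p = 0.0203, limma). Glmn, glomulin, which binds the cullin ligase subunit Rbx1, had 19.3, 23.5 and 20.05 FPKM at NM28d, 12.1, 5.78 and 11.8 FPKM at NM1d and 9.34, 9.95 and 10.7 FPKM in PBS. Of 6 related cullin ligase genes tested 0 passed at NM28d against PBS.

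Pih1d2, Kctd4 and Rwdd2a were given no role here. Pih1d2 had 37.2, 26.4 and 32.02 FPKM at NM28d, 25.2, 16.05 and 12.7 FPKM at NM1d and 13.2, 19.1 and 15.5 FPKM in PBS. Rwdd2a had 15.2, 13.4 and 13.9 FPKM at NM28d, 8.76, 6.44 and 8.52 FPKM at NM1d and 4.95, 5.97 and 12.8 FPKM in PBS, and PBS replicate 2 came close to the NM28d range. Kctd4 had 2.92, 3.02 and 3.19 FPKM at NM28d, 1.85, 2.29 and 0.708 FPKM at NM1d and 1.16, 0.994 and 1.14 FPKM in PBS. It lies wholly within Gtf2f2, on the opposite strand, which averaged 14.4 FPKM at NM28d, 14.3 FPKM at NM1d and 14.1 FPKM in PBS. In all, 33 members overlapped another gene of the RefSeq table, and 12 members overlapped a protein-coding gene that the file also measured. Among overlaps with genes absent from the file, Arl4a lies wholly within a protein-coding gene, and Mss51 shares 57.9% of its length with another. Gnrh1 shares 85.2% and Cstb 56.4% of their length with genes of non-coding RNA. The part of such neighbours in the members' values was not tested.

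The distance between the NM28d libraries and the rest varied widely among members. The ratio of the lowest NM28d library to the highest of the other 6 had a median of 1.43. It exceeded 2 for 7 members, Gcgr, Pax8, Ptcd3, Zfp579, Scamp5, Sorbs3 and Ndrg2. It was under 1.1 for 7 others, Ccng1, Sypl1, Cyp2s1, Sec23a, Pih1d2, Rwdd2a and Ankh. With each library left out in turn, 22 of the 56 members met the rule every time, and 101 genes met it without NM28d replicate 1, of which 50 were members.

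**Figure D5:**
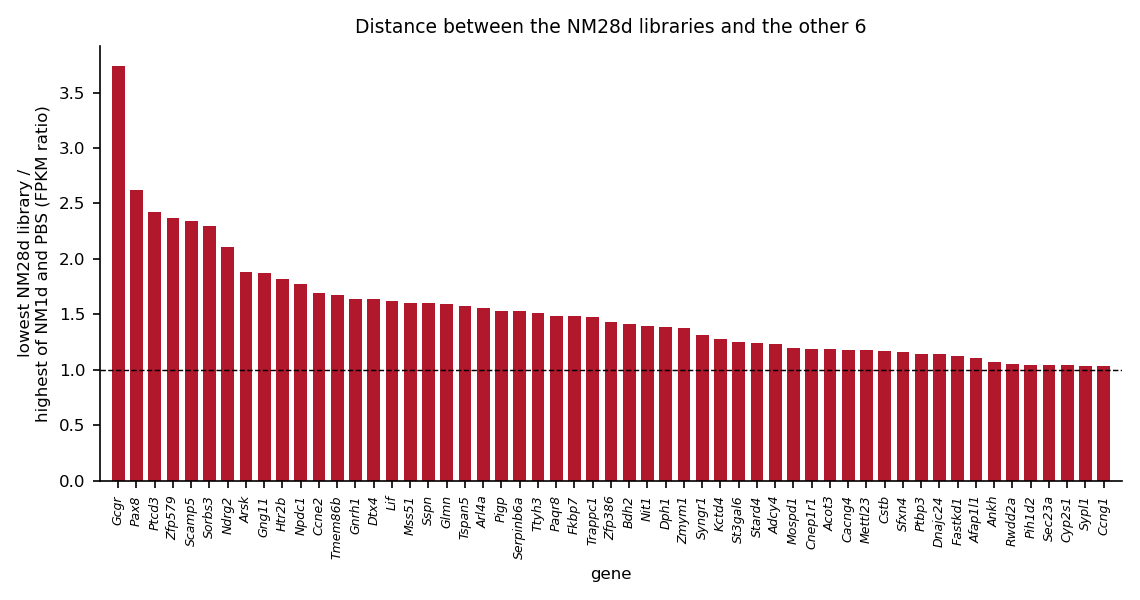
Bars give, for 55 of the 56 members, the FPKM of its lowest NM28d library divided by that of its highest NM1d or PBS library, and the dashed line marks a ratio of 1. The bars run from 3.74 for Gcgr down to 1.03 for Ccng1.

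Near the limits members and other genes were alike in value. Just inside the limit of 0.8 lay Sec23a with 0.81 and Adcy4 and Acot3 with 0.82, and just outside lay Prps2 and Fam151b with 0.79 and Dpep2 with 0.78. At the upper day 1 limit Dtx4, Ptcd3 and Htr2b had NM1d differences of 0.38, 0.37 and 0.36, and 4921524L21Rikl and LOC100912312 fell outside with 0.41 each. At the lower limit Gcgr, Tspan5 and Tmem86b had -0.38, -0.31 and -0.29, and Col15a1, Sts and Pigh fell outside with -0.43, -0.43 and -0.45. At the level limit Bdh2, Kctd4 and Paqr8 averaged 3.03, 3.04 and 4.32 FPKM at NM28d, and Ppfibp2, Pla2g2f and Mt3 fell outside with 2.97, 2.94 and 2.59 FPKM.

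The genes outside the set whose pattern was most like that of the members were Traf7, Ppp2r5c, Acy3, Slc6a8 and Add1. Likeness was Pearson's r over the 9 libraries between log2(FPKM + 1) and the mean of the members' z scores, and it was 0.986, 0.965, 0.963, 0.960 and 0.960 for these genes. The 9 points share the 3 groups, so r is given as a description. Traf7 had 66.8, 64.5 and 60.2 FPKM at NM28d, 45.7, 41.0 and 41.3 FPKM at NM1d and 44.5, 42.9 and 41.3 FPKM in PBS, a difference of 0.56, below the limit of 0.8. Acy3 had 4.93, 4.29 and 4.21 FPKM at NM28d, 1.40, 0.616 and 1.33 FPKM at NM1d and 0.216, 0.748 and 0.588 FPKM in PBS, and its NM1d difference of 0.47 lay outside the limit of 0.4. Slc6a8 met the values but was left out by its name.

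Markers of the labelled cell type were present in all groups. Of 15 alveolar macrophage markers in the file 13 were above 0 in some library, with summed levels of 2668 to 2956 FPKM at NM28d, 2401 to 2794 FPKM at NM1d and 2495 to 4065 FPKM in PBS, and Marco and Fabp1 were at 0 in all libraries. Markers of other cells were summed over 12 further lists. None of these sums lay above both other groups in every NM28d library, while those of endothelium (20.9 to 31.8 FPKM at NM28d, 40.9 to 53.5 FPKM at NM1d and 38.9 to 42.9 FPKM in PBS), airway epithelium (909 to 1455 FPKM at NM28d, 1558 to 3673 FPKM at NM1d and 1557 to 8527 FPKM in PBS) and B cells (0.285 to 0.848 FPKM at NM28d, 1.98 to 3.62 FPKM at NM1d and 1.45 to 7.91 FPKM in PBS) lay below both. Alveolar epithelium markers summed to 287 to 399 FPKM at NM28d, 1058 to 3134 FPKM at NM1d and 250.0 to 427 FPKM in PBS. The part of such cells in the members' values was not tested, and in bulk RNA a change in the number of cells of a type and in RNA per cell cannot be told apart. Between 11149 and 11339 transcripts were above 0 in the NM28d libraries, against 12112 to 12516 in the NM1d libraries and 12145 to 12241 in the PBS libraries. Absolute depth was not used here, and relative depth read from the spacing of low FPKM values was 1.03 to 1.12 at NM28d, 1 to 1.47 at NM1d and 1.42 to 2.58 in PBS. The part of depth in the members' values was not tested.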

How the data were processed

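RNA of 9 alveolar macrophage libraries from male Wistar rats was measured by paired end sequencing (TruSeq kit, per the labels' protocols), 3 libraries each for NM28d, NM1d and PBS. Reads were handled with TopHat and Cuffdiff on the rat build rn4, per the submitters' processing notes. Their versions, the annotation, the library strand and the handling of multiply matched reads are not given in the sources used here. FPKM values for 18197 transcripts are what the authors deposited. Symbols came from a RefSeq table of the build GRCr8, which named 17189 transcripts (94.5%), and coordinates are left out because the builds differ.

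The FPKM of transcripts of a symbol were summed, giving 17109 genes. The 9885 genes with at least 1 FPKM in at least 3 of 9 libraries were tested two-sided in R 4.3.3 by lmFit and eBayes with trend of limma 3.58.1 on log2(FPKM + 1), all 9 libraries sharing 1 estimate of the spread, with Benjamini-Hochberg adjustment over all genes. Adjusted p under 0.05 counted as called. The procedure was tested on simulated data. Errors are SD within groups of 3 or SE of the fitted log2 fold change. The labels do not say which animals gave each library, so p-values measure the spread between these libraries. Absolute depth is unknown, and no counting intervals are given. Sums and figures used Python 3.11.15 with pandas 2.3.3, numpy 2.4.6 and matplotlib 3.10.9.

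The members, the 38 gene lists (25 of pathways and 13 of cell types), the families of partner genes and the alternatives were chosen with earlier results of these data known. Of the pathway lists 4 held a member, and the results of 3 of those are given. A member and a few other genes are not reported here, so 55 of 56 members are drawn or named. The genes named were the 12 members with the largest difference, the 8 with the highest level, up to 3 members of each list, the 3 on each side of every limit, up to 2 genes called in each direction from lists that hold a member, and the 5 genes most like the members. Other members and partner genes were named after their values were seen. Other settings tried were quantile normalisation, median-of-ratios scaling, a filter of 5 FPKM or none, pseudocounts of 0.1 or 5, transcripts taken singly, the replicate number as a block, only the 6 libraries compared, and each library left out in turn.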

Additional observations from a re-analysis of the deposited data

How the results depend on the processing

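The choice of members depended on the pseudocount. With a pseudocount of 1 the rule gave 56 genes, with 5 it gave 37 (27 of them members) and with 0.1 it gave 63. Median-of-ratios scaling gave 60 genes and quantile normalisation 68, and 41 of the 56 members met the rule under both other scalings. When transcripts were taken singly, 55 transcripts met the rule, a count of transcripts and not of genes. With 1 library left out the rule gave 56 to 101 genes. Genes called at NM28d against PBS then numbered 154 to 368 higher and 120 to 426 lower, those at NM28d against NM1d 214 to 630 higher and 300 to 776 lower, and those at NM1d against PBS 181 to 658 higher and 55 to 721 lower. With the NM28d and PBS libraries alone 223 genes were called lower at NM28d, against 393 with all 9 libraries. With a filter of 5 FPKM 408 genes were called lower at NM28d than at NM1d, against 680, and 324 were called higher at NM1d than in PBS, against 522. The causes of these shifts, other than fewer genes or libraries entering, were not tested. Replicate numbers did not pair the libraries: the deviations of libraries with the same number correlated at -0.10 to 0.20. With the replicate number as a block 278 genes were called higher and 348 lower at NM28d against PBS, and the block changed the NM28d call of none of the 12 list and partner genes tested in full above. At NM1d it ended the calls of Gnb4 and Mdm2. For the members that the naming rule selects, 113 values under other settings moved by less than the spread between replicates. A further 22 moved by more, all with pseudocounts of 0.1 or 5, and none changed sign. Part of this was fixed in advance. Each replicate number occurs once per group, so the block could not change a difference, and its values are among the 113. As the rule barred overlap with PBS, no pseudocount could change a sign. Depth limits low genes such as Bdh2 and Kctd4 most, and FPKM alone give no counting error for them.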

Other observations

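Of the genes that met the values of the rule but were left out by name, 4 are given here as values. Ctsk, the cysteine protease cathepsin K, had 43.4, 26.7 and 39.3 FPKM at NM28d, 16.8, 11.6 and 8.13 FPKM at NM1d and 10.7, 11.6 and 6.62 FPKM in PBS. Scarb1, a receptor for high-density lipoprotein, had 35.8, 25.6 and 32.9 FPKM at NM28d, 16.2, 14.9 and 15.4 FPKM at NM1d and 19.6, 14.5 and 15.9 FPKM in PBS. Fdft1, the enzyme that makes squalene, had 75.1, 76.5 and 65.2 FPKM at NM28d, 41.5, 32.2 and 44.5 FPKM at NM1d and 36.1, 44.2 and 34.2 FPKM in PBS. Fdps, an enzyme earlier in the same route, had 183, 82.7 and 179 FPKM at NM28d, 75.3, 51.5 and 66.1 FPKM at NM1d and 68.9, 74.4 and 51.2 FPKM in PBS. In all 4 genes NM28d replicate 1 or 2 was the lowest of its group and still above the other 6 libraries.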
